A study of Mus musculus with 2 samples.

Results

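Megakaryocyte lineage cells were taken from 2 single-cell RNA libraries of mouse yolk sac as barcodes that carried platelet genes without macrophage or red cell genes. A barcode was a member when it held at least 3 molecules of Pf4 RNA and at least 2 of Itga2b, Gp9 and Gp1bb together, fewer than 3 of the complement genes C1qa, C1qb and C1qc, and less than 5% of its molecules from the embryonic globins Hbb-y, Hbb-bh1 and Hba-x. RNA molecules were counted by unique molecular identifiers (UMIs). The rule found 97 members among 1634 barcodes kept for having 500 genes or more and no more than 10% of UMIs from mitochondrial genes: 22 of 787 in the wild-type (WT) library and 75 of 847 in the Baf155 CKO library. Because these genes chose the cells, their levels are given as a description.

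Both genotypes were of the B6 strain, and each library pooled yolk sacs of E9.5 and E10.5 embryos in equal numbers. The tissue was digested with 0.25% collagenase, frozen, thawed and sorted for live cells without the red cell surface antigen Ter119, a step that removes part of the erythroid cells. The CKO mice carry a conditional knockout of Baf155, the protein of the gene Smarcc1, which scaffolds BAF, the mammalian SWI/SNF complex that moves nucleosomes. The sources used here do not give the driver of the deletion, the deleted part of the gene or the number of embryos, and a cell cannot be assigned to a stage. The labels name nuclei in one place and live cells in another. There was 1 library per genotype, so no test was made between genotypes, and embryos, sorting and library cannot be told apart from genotype. The 95% intervals in parentheses cover counting error alone, and they are too narrow to the extent that UMIs from the same cell vary together.

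Megakaryocytes are the cells that shed platelets. In the yolk sac they arise early, from primitive progenitors and from erythromyeloid progenitors, and they turn on platelet surface receptors, granule proteins and signalling adaptors under transcription factors of the GATA, ETS, RUNX and NF-E2 families. Pf4 encodes platelet factor 4, a chemokine stored in alpha granules. Itga2b encodes CD41, the alpha chain of the fibrinogen receptor, which early blood progenitors also carry. Gp9 and Gp1bb encode chains of the von Willebrand factor receptor.

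The promoters of 5 genes that the results turn on are shown, from 250 bases before to 50 bases after the annotated start, as RefSeq gives them for GRCm38.p6. Pf4 and Itga2b chose the cells, Gp1ba and Gp5 complete the von Willebrand factor receptor, and Clec1b encodes the podoplanin receptor CLEC-2. Capitals mark GATA words (AGATAA or TGATAA) and ETS words (AGGAAG or CGGAAG) on either strand.
Pf4 (chr5:90772185-90772484, plus strand): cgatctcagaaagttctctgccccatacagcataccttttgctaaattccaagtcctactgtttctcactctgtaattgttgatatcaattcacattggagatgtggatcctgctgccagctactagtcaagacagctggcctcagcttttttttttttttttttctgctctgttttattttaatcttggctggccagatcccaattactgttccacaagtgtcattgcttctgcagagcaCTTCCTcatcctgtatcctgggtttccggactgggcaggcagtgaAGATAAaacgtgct
Itga2b (chr11:102469834-102470133, minus strand): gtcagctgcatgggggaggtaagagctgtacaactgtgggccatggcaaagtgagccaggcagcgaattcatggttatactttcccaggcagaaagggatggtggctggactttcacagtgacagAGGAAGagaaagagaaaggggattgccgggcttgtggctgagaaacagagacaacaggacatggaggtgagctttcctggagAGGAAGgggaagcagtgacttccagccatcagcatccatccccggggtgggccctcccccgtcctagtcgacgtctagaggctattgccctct
Gp1ba (chr11:70638872-70639171, plus strand): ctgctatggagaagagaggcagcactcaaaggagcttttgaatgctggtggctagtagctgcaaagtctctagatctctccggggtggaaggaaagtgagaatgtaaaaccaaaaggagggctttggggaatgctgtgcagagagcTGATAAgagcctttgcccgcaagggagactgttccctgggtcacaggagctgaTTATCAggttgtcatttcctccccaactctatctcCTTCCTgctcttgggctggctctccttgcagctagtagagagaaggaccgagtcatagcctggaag
Gp5 (chr16:30310732-30311031, minus strand): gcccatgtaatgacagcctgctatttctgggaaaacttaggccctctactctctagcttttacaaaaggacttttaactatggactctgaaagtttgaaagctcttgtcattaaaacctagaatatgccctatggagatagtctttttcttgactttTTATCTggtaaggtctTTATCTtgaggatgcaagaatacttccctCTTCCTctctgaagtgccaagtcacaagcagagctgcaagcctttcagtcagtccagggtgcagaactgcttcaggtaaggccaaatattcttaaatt
Clec1b (chr6:129397047-129397346, plus strand): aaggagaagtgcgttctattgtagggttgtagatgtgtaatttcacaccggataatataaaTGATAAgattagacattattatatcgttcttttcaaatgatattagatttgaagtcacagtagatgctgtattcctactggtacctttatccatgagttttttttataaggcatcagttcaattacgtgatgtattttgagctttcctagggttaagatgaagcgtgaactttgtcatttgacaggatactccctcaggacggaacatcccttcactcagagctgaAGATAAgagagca
GATA words occurred once in Pf4, after the annotated start, 2 times each in Gp1ba, Gp5 and Clec1b, and not in this window of Itga2b. ETS words occurred 2 times in Itga2b, once each in Pf4, Gp1ba and Gp5, and not in this window of Clec1b. Of all 32851 promoters of this length, 18.6% held a GATA word and 46.5% an ETS word. Among the 24 promoters listed for the platelet receptor genes, 8 held a GATA word (33.3%) and 12 an ETS word (50%). Of the 24 granule gene promoters 4 held a GATA word (16.7%) and 16 an ETS word (66.7%). Of the 45 signalling gene promoters 8 held a GATA word (17.8%) and 25 an ETS word (55.6%). Promoters were found for 79 of the 100 genes of the platelet lists. A match of letters is a description and not a binding site.

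Members made up 2.80% of the kept WT barcodes (1.76 to 4.20) and 8.85% of the kept CKO barcodes (7.03 to 11.0), so that the CKO share was 3.17 times the WT share. Among members with Pf4 at 1000 UMIs per 1000000 UMIs (CPM) or more, called Pf4-high here, the libraries held 1 WT cell (0.127% of kept barcodes, 0.00322 to 0.706) and 34 CKO cells (4.01%, 2.80 to 5.56). Below that level, the Pf4-low members, there were 21 WT cells (2.67%, 1.66 to 4.05) and 41 CKO cells (4.84%, 3.50 to 6.51). The share ratio was 31.6 for Pf4-high and 1.81 for Pf4-low members. At 5000 CPM or more, with 0.127% of WT and 2.72% of CKO barcodes, it was 21.4, and at both levels the WT share rests on the same 1 cell. The level of 1000 CPM was chosen after seeing the data and cuts a continuous range, with 15 of 75 CKO members and 2 of 22 WT members between 500 and 2000 CPM.

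Pf4 itself ranged from 3 to 323 UMIs per cell in WT members (median 4.5) and from 3 to 1489 in CKO members (median 18). In the WT library 18 of 22 members lay under 200 CPM, and the highest cell stood alone at 323 UMIs. In the CKO library 24 of 75 members lay under 200 CPM and 23 reached 5000 CPM or more. Summed over members, Pf4 was 439 CPM in WT (401 to 481) and 5048 CPM in CKO (4962 to 5136). Members at the lower limit, with exactly 3 Pf4 UMIs, numbered 6 in WT and 11 in CKO. Just outside it, 10 WT and 18 CKO barcodes met every other rule with 2 Pf4 UMIs. Another 4 CKO barcodes met every rule except the globin limit, with a median of 211 and a maximum of 670 Pf4 UMIs, against 1 such WT barcode with 4.

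**Figure D1:**
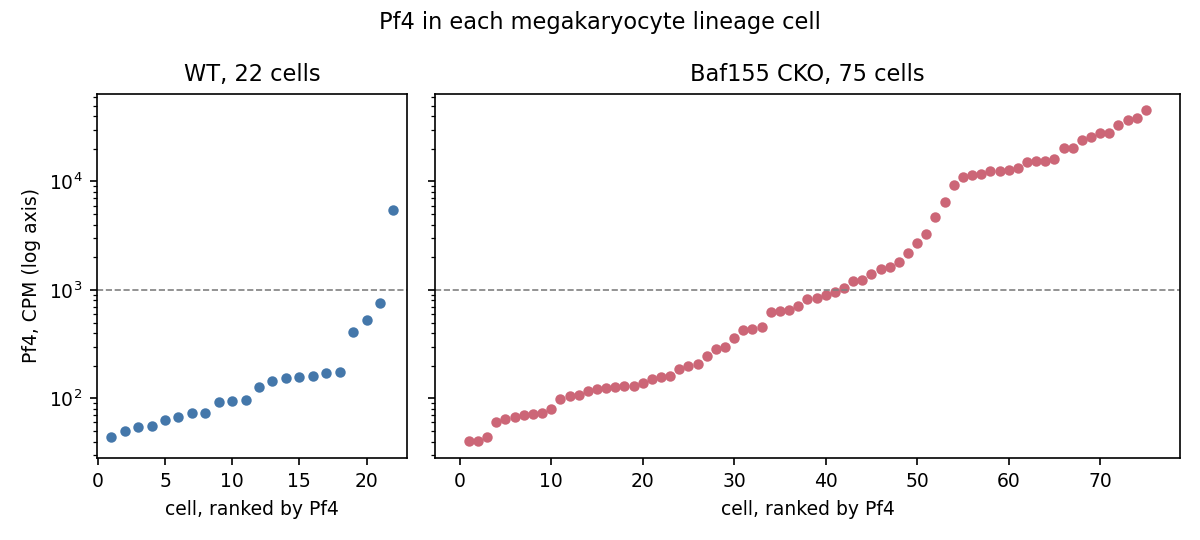
Pf4 in CPM (log axis) for each of the 22 WT and 75 CKO members, ranked from lowest to highest, with a dashed line at 1000. One WT point and 34 CKO points lie above the line, and the CKO points run from low to high with no gap at the line.

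Pf4 RNA was also seen outside the members. At least 1 Pf4 UMI was found in 2 of 245 WT stromal barcodes (0.816%, 0.0990 to 2.92) and 66 of 282 CKO stromal barcodes (23.4%, 18.6 to 28.8), at median depths of 22599 and 21996.5 UMIs. Stromal cells should lack Pf4, so these shares were read as a background, whose source was not tested. It was larger in CKO, where 4 stromal barcodes reached the 3 UMIs that the rule asks for, against 0 in WT, and the most that any of them held was 4. The level was 0.352 CPM in WT stromal barcodes and 12.3 CPM in CKO stromal barcodes, against 152 CPM in WT and 228 CPM in CKO Pf4-low members. The part of this background in CKO members at 3 or 4 Pf4 UMIs was not tested. The shares at a minimum of 10 Pf4 UMIs, above all stromal barcodes, were 0.508% in WT and 5.55% in CKO.

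**Figure D2:**
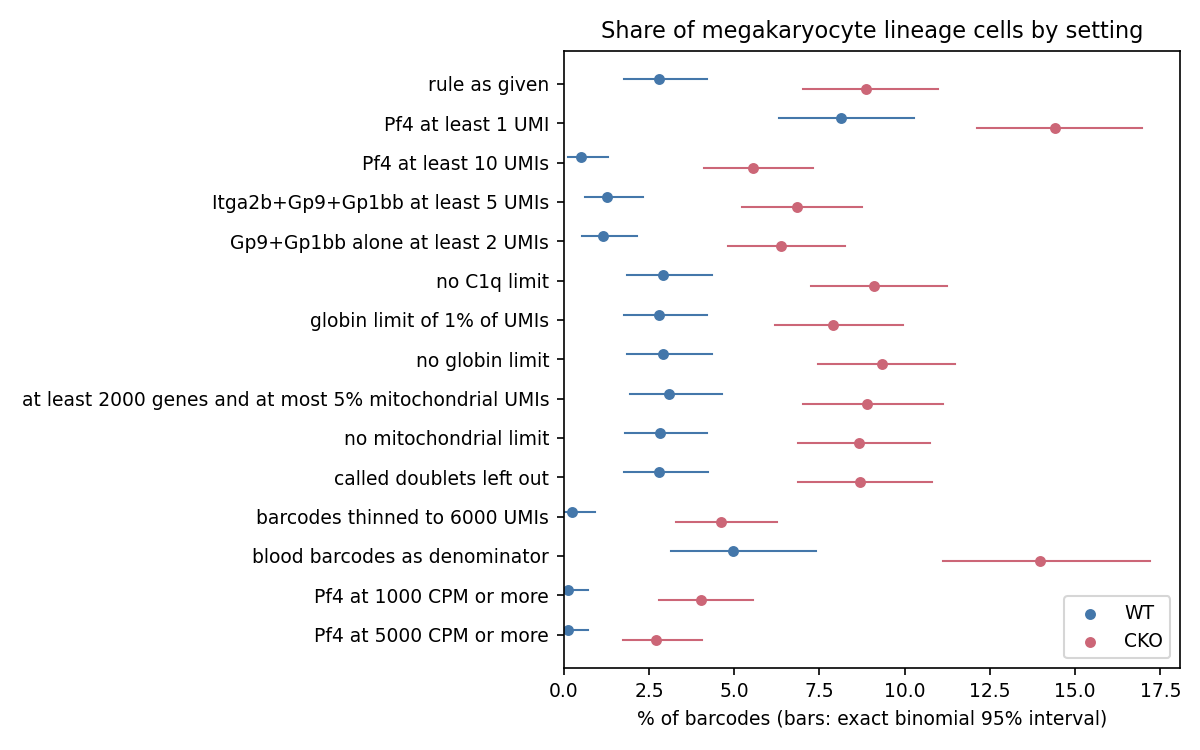
Members as a percentage of barcodes in WT and CKO under the rule as given and 14 other settings, with exact binomial 95% intervals. The CKO point lies to the right of the WT point in every setting shown, and the ratio of the shares runs from 1.77 to 31.6.

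Depth differed in the other direction. Members had a median of 52327.5 UMIs in WT and 31328 in CKO, while all kept barcodes had 28167 and 28320. With every barcode thinned to 6000 UMIs, which left out none of them, 2 WT barcodes (0.254%) and 39 CKO barcodes (4.60%) met the rule. The WT barcode counts came from 24538853 UMIs in 815 barcodes and the CKO counts from 27314411 UMIs in 865 barcodes. One barcode sequence occurred in both libraries and was not a member. Doublet calling marked 3 WT and 6 CKO barcodes, of which 2 CKO cells were members, and these stayed in unless stated. Embryos of both sexes were pooled, and cells with Xist UMIs and no Y-linked UMIs were set apart from cells with Y-linked UMIs and no Xist. Members were 2.55% of the WT and 8.40% of the CKO cells of the first kind, and 3.95% and 9.91% of the second. Both Xist and Y-linked UMIs were found in 4 of 787 WT and 27 of 847 CKO kept barcodes, and in 0 WT and 1 CKO member. The source of this mixing was not tested.

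The label was checked first against markers that the rule did not use. Plek, which encodes pleckstrin, a platelet protein kinase C substrate, had UMIs in 21 of the 22 WT members and in 73 of the 75 CKO members. The share of progenitors with Plek is not given here, so these counts do not set members apart from progenitors. Treml1, which encodes an alpha granule membrane receptor, was seen in 9 WT and 46 CKO members. Gp9, Gp1bb and Treml1 together reached 10 UMIs in 4 WT members (18.2%, 5.19 to 40.3) and 34 CKO members (45.3%, 33.8 to 57.3), and 4 WT and 9 CKO members held none of the 3. Gp9 and Gp1bb are genes of the rule, so these counts are a description. After thinning to 6000 UMIs the cells with 10 or more numbered 0 and 13. Genes of late megakaryocytes were scarce. Tubb1, the platelet beta tubulin, gave 10 UMIs in 7 CKO members and 0 in WT, and Gp6, the collagen receptor, 7 UMIs in 5 CKO members and 0 in WT.

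Most WT members also carried genes of myeloid progenitors. Prtn3, which encodes proteinase 3 of neutrophil granules, was seen in 18 of the 21 WT Pf4-low members at 172 CPM and in 18 of the 41 CKO Pf4-low members at 159 CPM, but in 2 of the 34 CKO Pf4-high members at 4.36 CPM. Of the 178 WT UMIs 125 lay in 3 cells, and the other 18 cells stood at 62.8 CPM (47.0 to 82.2), with Prtn3 in 15 of them. Stromal barcodes had a Prtn3 UMI in 4.90% of WT and 4.26% of CKO cases, at median depths of 22599 and 21996.5 UMIs. WT progenitors outside the members stood higher, at 319 CPM of Prtn3, and all 6 granulocyte-monocyte genes counted were lower in WT members than in them, with sums of 244 and 597 CPM. Mpo, myeloperoxidase, was 46.5 CPM in WT Pf4-low, 160 CPM in CKO Pf4-low and 25.1 CPM in CKO Pf4-high members. Only 1 WT member was Pf4-high, and the other 21 WT members held 3 to 27 Pf4 UMIs each. Most of the WT set thus goes against the label of megakaryocytes and is called members by the rule only. The label is also unsure for many of the 41 CKO Pf4-low cells. Their granulocyte-monocyte list summed to 352 CPM, against 258 CPM in WT Pf4-low members, and their progenitor list to 1127 against 802 CPM. Their platelet receptor list, which includes genes of the rule, was also higher, at 2539 against 1036 CPM. Comparisons between genotypes are given for all members and, for most lists and named genes, again for the Pf4-low members only. These held 3 to 27 Pf4 UMIs in 21 WT cells and 3 to 34 UMIs in 41 CKO cells. Within these ranges 18 WT and 24 CKO cells lay under 200 CPM, so the sets are not matched for Pf4.

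Against the other barcodes of their own library, both platelet and progenitor genes were higher in members. A gene was counted as different when its summed CPM differed at least 2-fold and it had at least 20 UMIs over both sets. Over all genes, 5.33% were 2-fold or more higher in WT members and 8.1% in CKO members than in the other kept barcodes of that library. Of the platelet receptor list, without the genes of the rule, 8 of 18 were higher in WT members and 16 of 21 in CKO members, and 2 were lower in each, where 23% of all genes were lower in WT members and 18.5% in CKO members. Of the platelet signalling list, 22 of 46 and 38 of 47 were higher. Genes of the list that were 2-fold lower numbered 6 in WT and 0 in CKO. Of the granule list 10 of 23 were higher and 6 lower in WT, and 15 of 24 higher and 1 lower in CKO. The median log2 ratios of the receptor, granule and signalling lists were 0.76, 0.36 and 0.95 in WT and 2.36, 1.63 and 2.10 in CKO. Of the progenitor list 8 of 12 were higher and 0 lower in WT members, with a median of 1.33, above those of the platelet lists, and 9 of 12 higher and 2 lower in CKO members, with a median of 1.25. Cells in the other kept barcodes are of many types, so progenitors give a closer reference. These were kept barcodes with 3 or more UMIs of Kit, Gata2 and Myb together that were neither members nor past the C1q or globin limits.

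Against progenitors the contrast was narrower in WT than in CKO. Over all genes, 2.53% were higher in WT members than in the 133 WT progenitors, and 3.87% in CKO members than in the 109 CKO progenitors. For platelet receptors the counts were 5 of 16 in WT and 9 of 18 in CKO, and for platelet signalling 8 of 42 and 24 of 46. For platelet granules they were 4 of 18 and 10 of 23. The granule median log2 ratio was -0.29 in WT, where 11 of the 18 genes had a ratio below 1. In CKO it was 0.81, and 6 of the 23 had a ratio below 1. Gp5, a chain of the von Willebrand factor receptor, was 12.8 CPM in WT members and 11.7 CPM in WT progenitors, a ratio of 1.10 (0.571 to 1.98). In CKO it was 96.1 CPM in members and 0.480 CPM, from 2 UMIs, in progenitors, a ratio of 200.2 (54.8 to 1662). Rab27b, which encodes a small GTPase of granule release, was higher in members than in progenitors in both libraries, by 5.74-fold (4.36 to 7.55) in WT and 3.94-fold (3.45 to 4.50) in CKO. Gnaz, a platelet G protein alpha subunit, was 6.10-fold higher (3.04 to 12.4) in WT and 54.1-fold higher (27.1 to 127) in CKO.

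The 20 genes with the highest ratios of CKO members over the other CKO barcodes, outside the rule, included Gnaz, Gp5, Treml1, Rab27b, F2rl2 and Itgb3. Gnaz stood at 104 against 2.24 CPM, a ratio of 46.5 (34.7 to 63.3). Treml1 stood at 104 against 5.77 CPM, 17.9 (14.6 to 22.1), and F2rl2, the thrombin coreceptor PAR3, at 110 against 6.79 CPM, 16.2 (13.3 to 19.7). Itgb3, the beta chain that pairs with CD41, stood at 768 against 79.3 CPM, 9.68 (9.08 to 10.3). Others among them were Fermt3, the integrin activator kindlin-3, Tmem40, Alox12, Thbs1, Ly6g6f, Cd9, Rgs18, Rabgap1l, Sla2, Clec1b, Tuba4a, Prkca and Rasgrp2. Rasgrp2 encodes the calcium-dependent activator of Rap1 in platelets and stood at 389 against 58.4 CPM, 6.66 (6.14 to 7.22).

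Surface receptors were higher in CKO than in WT members, and the summed list went in the same direction in progenitors. Over all 8196 genes compared, 12.3% were 2-fold or more higher in CKO and 4.14% lower, with a median log2 ratio of 0.02. Of 18 receptor genes counted, 13 were 2-fold higher, 0 were 2-fold lower and the median log2 ratio was 1.92. In Pf4-low members alone the shares over 7366 genes were 8.74% higher and 3.73% lower, and 9 of 15 receptor genes were higher and 0 lower, with a median of 1.27. Taking all 24 receptor genes in the files outside the rule, with no minimum, gave a median of 1.81. Summed with the genes of the rule, the receptor list was 1203 CPM in WT and 4614 CPM in CKO members, 1036 and 2539 CPM in Pf4-low members, and 806 and 1724 CPM in the progenitors outside the members. The rule's genes also decided which barcodes left the progenitors. Clec1b made up part of the rise in progenitors, and Gp5 went the other way there. How many receptor genes were higher in CKO progenitors was not counted. The signalling list was 3659 and 7817 CPM in members and 2536 and 4127 CPM in those progenitors. Whether the change was larger in members than in progenitors was not tested. The list, like the others, was written with earlier results of these data known, and genes under 20 UMIs were not counted.

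Clec1b had 0 to 14 UMIs per cell in WT members (median 1) and 0 to 107 in CKO members (median 18). Most CKO cells lay above the WT range, and the ranges overlapped. The sums were 55.9 CPM in WT and 688 CPM in CKO, a ratio of 12.3 (9.54 to 16.2). In Pf4-low members the ratio was 7.58 (5.75 to 10.2), from 53.2 and 404 CPM. Clec1b was also high in CKO progenitors outside the members, at 341 CPM against 32.5 CPM in WT progenitors. It overlaps Clec9a on the same strand, so its counts carry some uncertainty.

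Itgb3 had 0 to 32 UMIs per WT member (median 6.5) and 0 to 109 per CKO member (median 17), with sums of 141 and 768 CPM. The ratio was 5.44 (4.62 to 6.46) over all members and 3.25 (2.67 to 3.98) over Pf4-low members. Cd9, a tetraspanin of the platelet surface, had 1 to 49 UMIs in WT (median 3.5) and 0 to 110 in CKO (median 12), with sums of 122 and 607 CPM and a ratio of 4.99 (4.17 to 6.0). The WT maximum of 49 UMIs came from 1 cell that held 36.8% of the WT sum. In Pf4-low members the Cd9 ratio was 2.86 (2.25 to 3.66).

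Thrombin receptors followed the same direction. F2r, the thrombin receptor PAR1, was 82.4 CPM in WT and 275 CPM in CKO members, a ratio of 3.34 (2.68 to 4.21), and 2.37 (1.77 to 3.22) in Pf4-low members. F2rl2 was 17.4 and 110 CPM, a ratio of 6.31 (3.97 to 10.6), and 4.53 (2.15 to 11.0) in Pf4-low members. P2ry1, an ADP receptor, was 7.32 CPM from 8 UMIs in WT and 45.5 CPM in CKO, a ratio of 6.22 (3.05 to 14.7), and 4.06 (1.71 to 11.7) in Pf4-low members. Fcer1g, the signalling chain of the collagen receptor, was 374 and 613 CPM, a ratio of 1.64 (1.47 to 1.84) that stayed under 2-fold. Jam3, a junctional adhesion molecule, was the only counted receptor with a ratio below 1, at 28.4 and 20.2 CPM (0.713, 0.449 to 1.15).

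The remaining chains of the von Willebrand factor receptor depended on the Pf4-high cells. Gp1ba, the ligand-binding chain, gave 1 UMI in WT members and 69 in CKO members, a ratio of 29.3 (5.09 to 1175), and 60 of the 69 lay in Pf4-high cells. Gp5 was 12.8 and 96.1 CPM over all members, a ratio of 7.50 (4.39 to 13.9), but 10.6 and 21.2 CPM in Pf4-low members, 1.99 (0.987 to 4.34). A single CKO Pf4-low cell held 11 of the 35 Gp5 UMIs of that set. Treml1 was 26.6 and 104 CPM, a ratio of 3.90 (2.65 to 5.94), and 2.46 (1.35 to 4.78) in Pf4-low members. Gp1bb, a gene of the rule, overlaps Sept5 on the same strand, and how shared reads were counted is not stated.

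Granule genes were split. Of 20 counted without Pf4, 13 were 2-fold higher in CKO members and 0 lower, with a median log2 ratio of 1.56. The shares of all genes were 12.3% higher and 4.14% lower. In Pf4-low members 5 of 15 were higher and 1 lower, with a median of 0.83, where 8.74% of all genes were higher and 3.73% lower. Thbs1, thrombospondin 1 of alpha granules, gave 0 to 15 UMIs per WT member and 0 to 47 per CKO member, with a median of 0 in both. It was seen in 2 WT and 31 CKO members, at 14.6 and 194 CPM, a ratio of 13.2 (8.07 to 23.3), and 15 of the 16 WT UMIs lay in the Pf4-high WT cell. In Pf4-low members there was 1 Thbs1 UMI in WT and 120 in CKO, a ratio of 75 (13.2 to 2987). That ratio rests on 4 CKO cells that held 107 of the 120 UMIs, and the other 37 cells stood at 8.38 CPM (4.46 to 14.3). The same 4 cells held 43, 81, 25 and 109 Itgb3 UMIs and 1, 11, 4 and 6 Gp5 UMIs. All CKO Pf4-low cells together held 35 Gp5 UMIs, so the Gp5 level of that set rests mostly on these 4 cells. The part of the 4 cells in the other Pf4-low ratios was not tested.

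Ppbp, the chemokine precursor next to Pf4 on chromosome 5, gave 2 UMIs in WT members and 251 in 15 CKO members. A single cell held 33.9% of the CKO UMIs, and all but 2 of the 251 lay in Pf4-high cells. Vwf, von Willebrand factor, gave 2 UMIs in WT and 49 in CKO, a ratio of 10.4 (2.73 to 88.4). Timp3, a metalloproteinase inhibitor, was 27.5 and 175 CPM, 6.38 (4.40 to 9.56), and 2.89 (1.85 to 4.70) in Pf4-low members. Tgfb1, stored in alpha granules, was 272 and 664 CPM, 2.44 (2.16 to 2.77), and 1.88 (1.64 to 2.16) in Pf4-low members. Granule components shared with other blood cells did not follow. Srgn, the proteoglycan serglycin, was 102 and 98.1 CPM (0.965, 0.769 to 1.22), and Cd63, a membrane protein of dense granules and lysosomes, 223 and 193 CPM (0.866, 0.741 to 1.01).

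Signalling and cytoskeletal genes were higher in CKO for 26 of 46, lower for 1, with a median log2 ratio of 1.12. The shares of all genes were 12.3% higher and 4.14% lower. In Pf4-low members 15 of 43 were higher and 0 lower, with a median of 0.61, where 8.74% of all genes were higher and 3.73% lower. Plek had 0 to 38 UMIs per WT member (median 6) and 0 to 48 per CKO member (median 10), with sums of 169 and 385 CPM and a ratio of 2.27 (1.94 to 2.67). In Pf4-low members the Plek ratio was 1.59 (1.31 to 1.93). Rasgrp2 had 0 to 8 UMIs in WT (median 5) and 0 to 64 in CKO (median 10), a ratio of 3.97 (3.25 to 4.89), and 2.25 (1.80 to 2.83) in Pf4-low members. Fermt3 was 165 and 303 CPM over all members, 1.84 (1.56 to 2.18), and equal in Pf4-low members at 143 CPM each (1.00, 0.812 to 1.24).

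Several signalling genes were near 0 in WT members. Alox12, platelet 12-lipoxygenase, gave 1 UMI in WT and 198 in 36 CKO members, a ratio of 84.2 (14.9 to 3341). In Pf4-low members Alox12 had 1 and 51 UMIs, 26 of the 51 in 1 cell, a ratio of 31.9 (5.47 to 1283). Myl9, a myosin light chain, gave 1 and 190 UMIs, 80.8 (14.3 to 3207), and 0 and 34 UMIs in Pf4-low members. Flna, filamin A, which anchors the von Willebrand factor receptor, was 21.1 and 139 CPM, 6.60, and 3.21 (2.0 to 5.40) in Pf4-low members. Of the 46, 7 had ratios below 1, among them Nrgn and Dok2. Nrgn, neurogranin, which platelets carry, had 0 to 55 UMIs in WT (median 7.5) and 0 to 20 in CKO (median 3), with sums of 190 and 107 CPM and a ratio of 0.564 (0.469 to 0.679), and 0.596 (0.472 to 0.753) in Pf4-low members. Dok2, an adaptor that dampens signalling, was 60.4 and 28.8 CPM (0.477, 0.337 to 0.675), and 62.9 and 31.5 CPM in Pf4-low members.

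**Figure D3:**
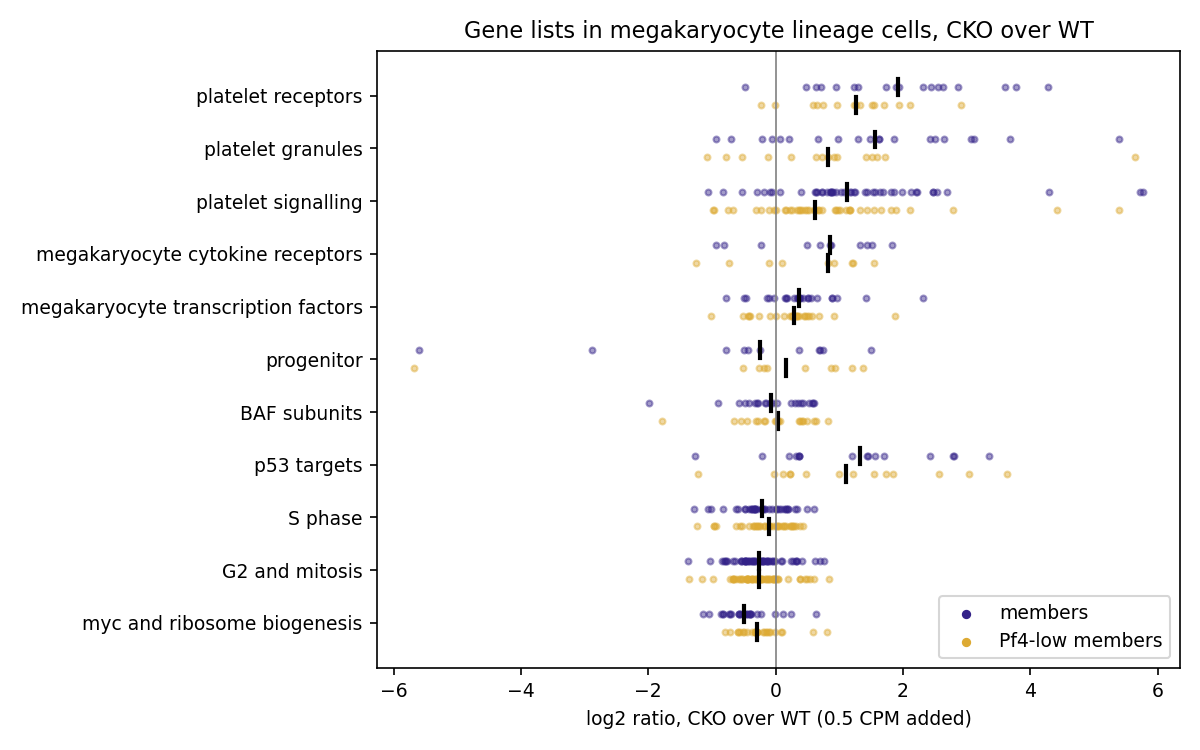
Log2 ratio of CKO over WT, with 0.5 CPM added, for each counted gene of 11 lists, over all members and over Pf4-low members. Black bars are list medians, and the genes of the rule are not shown. The medians of the platelet receptor, granule and signalling lists are 1.92, 1.56 and 1.12 over all members and 1.27, 0.83 and 0.61 in Pf4-low members, and each list has genes on both sides of 0.

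Most transcription factors of the lineage were within 2-fold, as were most of all genes. Of 25 counted, 3 were 2-fold higher in CKO members and 0 lower, where 12.3% of all genes were higher and 4.14% lower. Their median log2 ratio was 0.37. In Pf4-low members 1 was higher and 1 lower of 24, where 8.74% of all genes were higher and 3.73% lower. The median there was 0.29. Gata1, the GATA factor of red cells and megakaryocytes, had 0 to 12 UMIs per WT member (median 2) and 0 to 11 per CKO member (median 1), at 61.3 and 60.3 CPM (0.983, 0.734 to 1.33). In Pf4-low members Gata1 was 53.2 CPM in WT, where 13 of 21 cells held it, and 26.0 CPM in CKO, where 15 of 41 did, a ratio of 0.489 (0.320 to 0.742).

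Gata2, the GATA factor of progenitors, was 109 and 77.5 CPM over all members (0.711, 0.564 to 0.900) and 113 and 94.4 CPM in Pf4-low members (0.833, 0.652 to 1.07). Fli1, the ETS factor of megakaryocytes, was 71.4 and 102 CPM (1.42, 1.10 to 1.86), and Nfe2, the NF-E2 subunit needed for platelet release, 52.2 and 97.3 CPM (1.86, 1.39 to 2.53). In Pf4-low members their ratios were 1.49 (1.08 to 2.08) and 1.42 (1.02 to 1.99). Runx1 was 79.7 and 103 CPM (1.29, 1.01 to 1.66), and 1.38 (1.05 to 1.84) in Pf4-low members. Ets1 was the factor furthest from even, at 8.24 CPM from 9 UMIs in WT and 42.8 CPM in CKO, a ratio of 5.20 (2.64 to 11.7), and 3.82 (1.87 to 8.79) in Pf4-low members.

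Of the cytokine receptors and their signalling genes, 4 of 11 were 2-fold higher in CKO members and 0 lower, with a median log2 ratio of 0.85. The shares of all genes were 12.3% higher and 4.14% lower. In Pf4-low members 3 of 9 were higher and 1 lower, with a median of 0.82, where 8.74% of all genes were higher and 3.73% lower. Kit, the stem cell factor receptor, was 14.6 and 24.1 CPM (1.65, 0.939 to 3.06). Epor, the erythropoietin receptor, was 12.8 and 35.4 CPM (2.76, 1.57 to 5.25) over all members but 13.6 and 14.5 CPM in Pf4-low members (1.07, 0.532 to 2.24).

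Within the CKO library the members formed a range from cells with progenitor genes to cells with platelet genes. Over all genes, 8.75% were 2-fold or more higher in Pf4-high than in Pf4-low CKO members and 7.06% lower. Of the receptor list 12 of 17 were higher and 1 lower, of the granule list 11 of 19 and 0, and of the signalling list 29 of 46 and 1. Gp1ba was 65.5 against 5.45 CPM, a ratio of 12.0 (5.93 to 27.6), Gp5 231 against 21.2 CPM, 10.9 (7.61 to 16.1), and Ly6g6f, an immunoglobulin superfamily member, 146 against 13.9 CPM. The file's G6b, the inhibitory platelet receptor now named Mpig6b, was 76.4 against 6.66 CPM, 11.5 (6.04 to 24.0). Gata1 was 122 against 26.0 CPM, 4.70 (3.28 to 6.84), and Gata2 46.9 against 94.4 CPM, 2.01-fold lower.

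Progenitor and myeloid genes ran the other way. Of 9 progenitor genes counted, 5 were 2-fold lower in Pf4-high CKO members and 0 higher, with a median log2 ratio of -1.0, and the 3 granulocyte-monocyte genes counted were all lower, with a median of -3.34. Between the genotypes the progenitor list was mixed. Over all members 1 was higher and 2 lower in CKO of 11 counted (median -0.25), where 12.3% of all genes were higher and 4.14% lower. In Pf4-low members 2 were higher and 1 lower of 10 (median 0.16), where 8.74% of all genes were higher and 3.73% lower. Kit was 6.55 CPM in Pf4-high and 33.9 CPM in Pf4-low CKO members, 5.18-fold lower, and Cd34, a sialomucin of progenitors and endothelium, 156 and 375 CPM, 2.40-fold lower. Prtn3 was 36.3-fold lower (14.0 to 134) and Mpo 6.39-fold lower. Sox17, an endothelial SOX factor, gave 0 UMIs in Pf4-high cells and 53 UMIs in 7 Pf4-low cells. The Myc and ribosome biogenesis list was lower in Pf4-high cells for all 27 counted genes, 10 of them 2-fold, with a median log2 ratio of -0.95. Its most abundant member, the nucleolar protein Npm1, was 2284 and 4790 CPM, 2.10-fold lower.

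Across the 75 CKO members, the share of UMIs from Pf4 went with those of Itgb3 (Spearman rho 0.757), Clec1b (0.680), Gp5 (0.655), Vwf (0.582) and Gata1 (0.551), and against those of Mpo (-0.623), Prtn3 (-0.589) and Kit (-0.515). These values describe cells of 1 library and share its depth. The Pf4 share also went with the mitochondrial share (0.557) and against UMIs per cell (-0.549). The rule asks for 3 Pf4 UMIs at any depth, so part of the link with depth is fixed by the rule. A CKO member with 3 Pf4 UMIs stood at 40.3 CPM at 74490 UMIs and at 156 CPM at 19225 UMIs. Pf4-high CKO members had a median of 25410.5 UMIs and 3.08% mitochondrial UMIs, and Pf4-low CKO members 38523 UMIs and 2.25%. The part of depth and RNA quality in these contrasts was not tested.

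**Figure D4:**
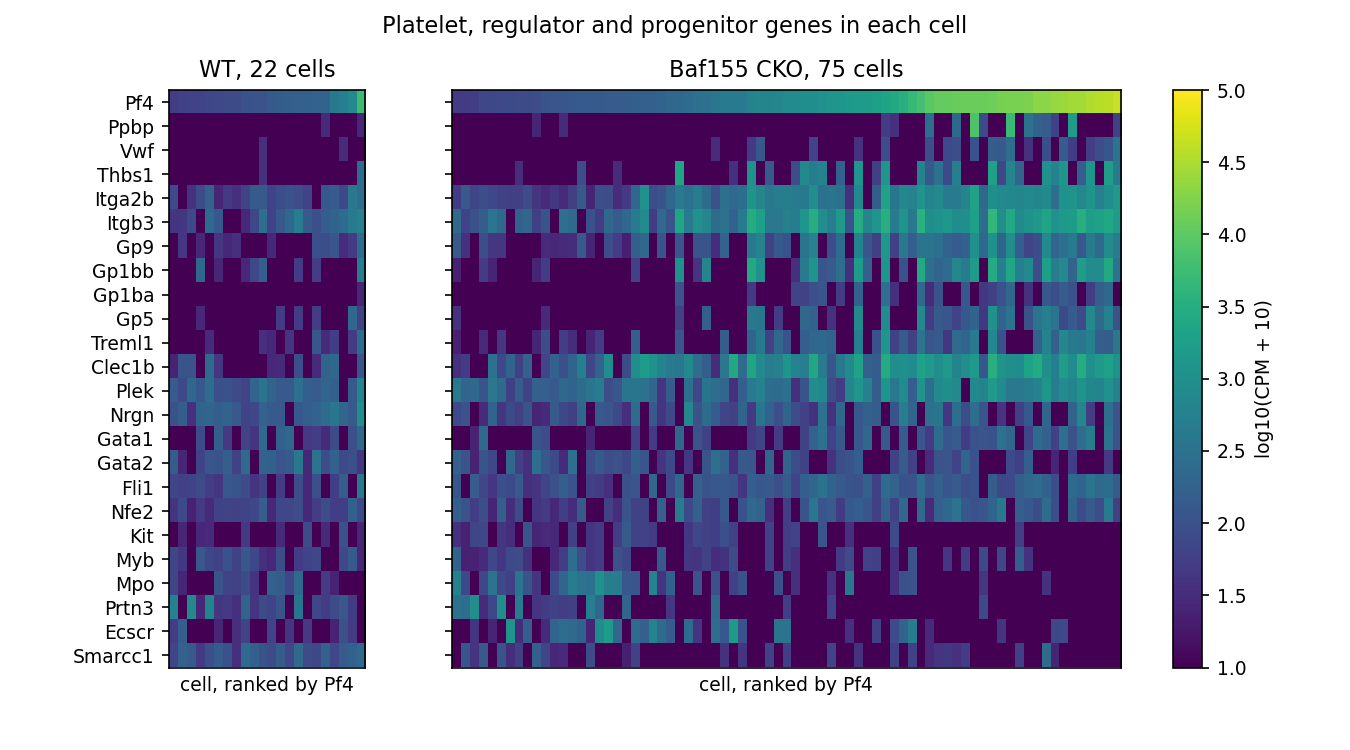
Level of 24 genes in each of the 22 WT and 75 CKO members, ordered by Pf4 from left to right, as log10 of CPM plus 10. Platelet genes brighten toward the right of the CKO panel, while Mpo, Prtn3 and Kit dim, and the last WT column is the 1 Pf4-high WT cell.

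Other cell types were looked for among the members. The 13 macrophage genes summed to 127 CPM in WT members and 133 CPM in CKO members, and to 1505 CPM in the CKO barcodes past the C1q limit. The 13 include the C1q genes, so the rule fixed part of this contrast. Outside the rule, 9 of 10 macrophage genes were 2-fold lower in WT members than in other kept barcodes, where 23% of all genes were. In CKO 7 of 8 were lower and 1 higher, where 18.5% and 8.1% of all genes were. The highest WT member had 466 CPM, and 1 CKO Pf4-low member had 1843 CPM, without which the CKO level was 103 CPM. Of these genes 5 were at 0 in WT and 7 in CKO members, and C1qb, limited by the rule, gave 1 and 2 UMIs. Csf1r, the macrophage growth factor receptor, gave 2 UMIs in WT and 5 in CKO. Of 6 lymphocyte genes 5 and 4 were at 0. The stromal list summed to 47.6 CPM in WT and 379 CPM in CKO members, and to 924 CPM in the CKO Pf4-high members. The 2 CKO members called doublets held 137 and 49 of the 195 Col1a1 UMIs of the Pf4-high cells. Without them Col1a1 was 11.2 CPM, from 9 UMIs, and the stromal list 322 CPM. Over all members without the called doublets, the log2 ratio of Clec1b was 3.59 (3.61 with them) and that of Thbs1 3.62 (3.68 with them). Among the 32 Pf4-high CKO cells not called doublets, Actc1, cardiac actin, had 173 UMIs in 9 cells. Acta2, smooth muscle actin, had 205 UMIs in 13 cells, 165 of them in 1 cell.

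Of 10 red cell genes counted outside the rule, 7 were 2-fold higher in CKO members and 0 lower, with a median log2 ratio of 1.95, where 12.3% of all genes were higher. In Pf4-low members 3 of 6 were higher and 0 lower, with a median of 1.44, where 8.74% of all genes were higher. Hbb-y, an embryonic globin limited by the rule, was 172 CPM in WT and 1472 CPM in CKO members, and it differed in the same direction in progenitors, at 196 and 1136 CPM. Its share of UMIs together with Hbb-bh1 and Hba-x had a median of 0.03% in WT members and 0.234% in CKO members, against 0.0363% and 0.249% over all kept barcodes. Klf1, the erythroid transcription factor, gave 9 UMIs in 1 WT member and 4 in CKO members.

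Endothelial genes were 2-fold higher in CKO members for 6 of 11 and lower for 0, with a median log2 ratio of 1.06. Over all genes 12.3% were higher and 4.14% lower. Ecscr, an endothelial chemotaxis regulator, had 0 to 9 UMIs per WT member (median 0.5) and 0 to 61 per CKO member (median 0), at 26.6 and 137 CPM, a ratio of 5.16 (3.53 to 7.82). It had UMIs in 11 of the 22 WT members and 36 of the 75 CKO members, and most of its CKO UMIs, 326 of 352, lay in Pf4-low cells. Kdr, a VEGF receptor, was 30.2 and 94.2 CPM, 3.12 (2.16 to 4.63), and Tie1 22.9 and 60.7 CPM, 2.65 (1.73 to 4.22). Cdh5 and Pecam1, junction proteins of endothelium, had few UMIs and intervals that span 1, at 0.675 (0.355 to 1.32) and 0.921 (0.613 to 1.41). In Pf4-low members 6 of 10 endothelial genes were higher and 0 lower, with a median of 1.34, where 8.74% of all genes were higher. In CKO progenitors Ecscr stood at 278 CPM and in WT progenitors at 22.6 CPM.

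Smarcc1 (chromosome 9, 110117708 to 110240178, plus strand, GRCm38; ENSMUSG00000032481) checked the genotype within the members. It had 1 to 13 UMIs in every one of the 22 WT members (median 4.5) and 0 to 10 in CKO members (median 0), with 46 of 75 at 0. The levels were 115 CPM in WT and 28.8 CPM in CKO, a ratio of 0.250 (0.185 to 0.335), and 0.288 (0.203 to 0.403) in Pf4-low members. It overlaps Dhx30 on the other strand, and the deleted part is not known, so RNA of a deleted allele may be counted. Of the other 21 BAF subunits counted, none was 2-fold higher or lower, where 12.3% of all genes were higher and 4.14% lower. The list's median log2 ratio was -0.07. Smarca4, the ATPase BRG1, was 92.5 and 118 CPM (1.27, 1.01 to 1.61).

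Among CKO members, 7 held 3 or more Smarcc1 UMIs and 46 held none, a split made on the gene itself. Pf4-high cells were 1 of the 7 and 22 of the 46. Clec1b was 123 CPM in these cells (91.1 to 163) and 950 CPM (897 to 1004) in the 46 members with 0 Smarcc1 UMIs. The Pf4-high cell held 35 of the 49 Clec1b UMIs of the 7, and among Pf4-low cells the levels were 38.7 CPM (21.2 to 64.9) in 6 cells and 668 CPM (612 to 727) in 24 cells. Mest, an imprinted gene of growth control, was 5.02 CPM from 2 UMIs and 355 CPM, against 10.1 CPM in WT members. Ecscr was 5.02 and 183 CPM, and Prkca, a protein kinase C of platelets, 32.7 and 284 CPM. Among Pf4-low cells Mest was 5.53 and 455 CPM, Ecscr 5.53 and 285 CPM and Prkca 8.29 and 208 CPM. Gata1 was 70.3 and 74.8 CPM over all cells of the groups but 60.8 and 23.6 CPM among Pf4-low cells. The 22 CKO members with 1 or 2 Smarcc1 UMIs had 557 CPM of Clec1b and 394 CPM of Mest. The median depth was 59616 UMIs in the 7 cells and 25065.5 in the 46, and with few UMIs per cell a count of 0 does not show that the gene is deleted. The part of depth was not tested.

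**Figure D5:**
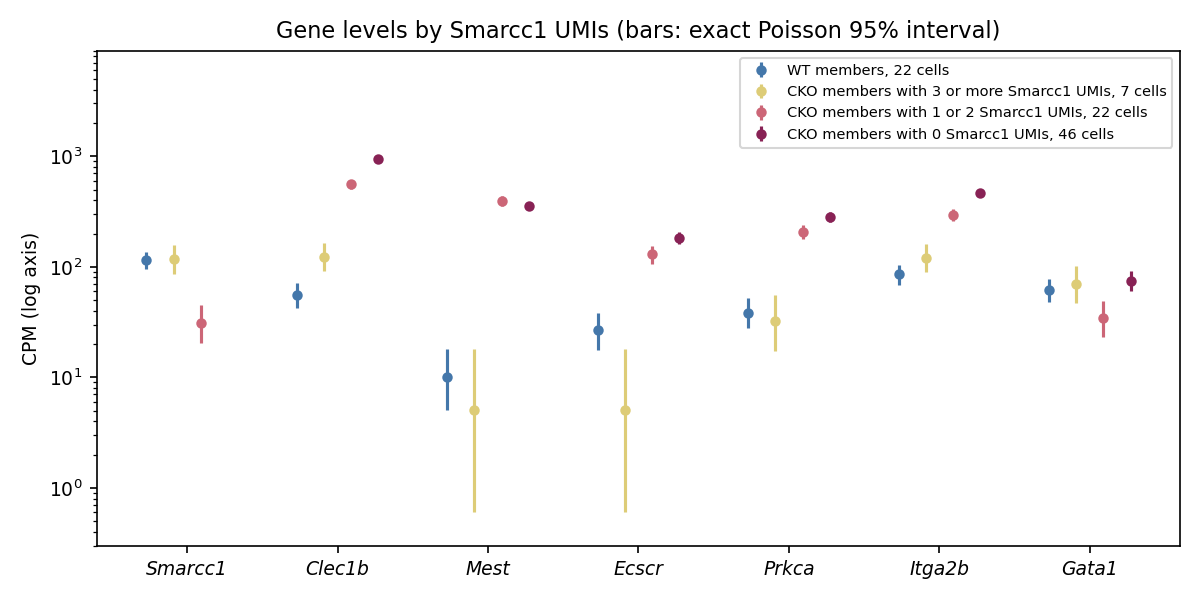
Levels of 7 genes in CPM (log axis) in WT members and in CKO members grouped by Smarcc1 UMIs, with exact Poisson 95% intervals. Smarcc1 defines the groups and has no point where it is 0. For Clec1b, Mest and Prkca the 7 CKO cells with 3 or more Smarcc1 UMIs lie nearer to WT than the other CKO cells do. For Ecscr the 7 cells lie below WT members, at 5.02 CPM from 2 UMIs. The other CKO cells lie above WT, at 129 CPM with 1 or 2 Smarcc1 UMIs and 183 CPM with 0.

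The genes furthest apart between the libraries included many outside the platelet lists. With 0 UMIs in WT members, a bound against 3 counts puts Actc1 at least 30.7-fold higher in CKO (217 UMIs in 12 cells), Tnnt2, cardiac troponin T, at least 28.6-fold (202 UMIs in 14 cells) and Pls1, the actin bundler plastin 1, at least 16-fold (113 UMIs in 42 cells). Akap5, Btn1a1, Pmp22 and Ube2l6 had 64 to 99 CKO UMIs and 0 in WT. Tgfb1i1, a focal adhesion protein, gave 1 UMI in WT and 204 UMIs in 42 CKO members, a ratio of 86.7 (15.4 to 3442). In Pf4-low members Mest had 0 to 2 UMIs per WT cell and 0 to 91 per CKO cell, at 9.68 and 274 CPM, a ratio of 28.3 (15.3 to 59.4). Mest overlaps Copg2 on the other strand. Lmo1, a LIM-only transcription cofactor, gave 3 and 99 UMIs there, 20.6 (6.86 to 102).

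Among the genes lower in CKO members were heat shock genes. Hspa1a, an inducible HSP70, had 1 to 318 UMIs per WT member (median 78) and 0 to 146 per CKO member (median 1), at 2266 and 392 CPM, 5.79-fold lower (5.38 to 6.23), and 7.01-fold lower (6.39 to 7.69) in Pf4-low members. Progenitors outside the members showed the same direction for Hspa1a, with 1753 CPM in the WT and 504 CPM in the CKO library. Hspb1, HSP27, was 3.69-fold lower (3.07 to 4.44) and Bag3, a cochaperone, 3.62-fold lower (2.63 to 5.0). Hnrnpa0, an RNA-binding protein, was 524 and 112 CPM, 4.66-fold lower (4.03 to 5.38). Slc6a13, Ptprcap, Slc9a3r2, Mogs, Ppp1r14b, Emid1 and Mettl13 were 3.53-fold to 6.32-fold lower.

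Of 16 p53 target genes counted, 9 were 2-fold higher in CKO members and 1 lower, with a median log2 ratio of 1.32. Over all genes 12.3% were higher and 4.14% lower. In Pf4-low members 8 of 14 were higher and 1 lower, where 8.74% of all genes were higher and 3.73% lower. Cdkn1a, the cell cycle inhibitor p21, had 0 to 5 UMIs per WT member and 0 to 30 per CKO member, at 13.7 and 98.1 CPM, a ratio of 7.14 (4.25 to 13), and 6.08 (3.57 to 11.1) in Pf4-low members. Bbc3, the death activator PUMA, was 36.6 and 120 CPM, 3.28 (2.36 to 4.69). Perp, a p53-induced membrane protein, was the lower one, at 61.3 and 25.3 CPM (0.412, 0.289 to 0.589). Few cell cycle genes passed 2-fold, and most had ratios below 1. Of 38 S phase genes 0 were 2-fold higher and 3 lower, with a median of -0.22, and 25 of the 38 had a ratio below 1. Of 56 genes of G2 and mitosis 0 were higher and 2 lower, with a median of -0.26, and 45 had a ratio below 1. In Pf4-low members 23 of 38 and 44 of 55 were below 1. The Myc and ribosome biogenesis list had 0 higher and 2 lower of 27, with a median of -0.49 over all members and -0.30 in Pf4-low members.

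Clec1b and Itgb3 were higher in CKO members in cells of either sex. Among cells with Xist and no Y-linked UMIs, 9 WT and 33 CKO members, Clec1b was 24.0 and 759 CPM, a ratio of 31.6 (17.1 to 66.2), and Itgb3 10.4 (7.70 to 14.5). Among cells with Y-linked UMIs and no Xist, 13 WT and 33 CKO members, Clec1b was 75.6 and 603 CPM, 7.98 (6.0 to 10.8), and Itgb3 3.11 (2.54 to 3.84). Mest was 19.5-fold higher (8.25 to 60.6) in the first set and 44.3-fold higher (20.2 to 121) in the second. The first set held 0 WT and 16 CKO Pf4-high cells and the second 1 and 11. Smarcc1 was 0.0825 of the WT level (0.0332 to 0.179) in the first set and 0.386 (0.275 to 0.539) in the second.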

How the data were processed

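Droplet 5′ single-cell RNA libraries of Ter119-negative mouse yolk sac cells were measured, 1 WT and 1 Baf155 CKO. The deposited values are UMI counts per gene and barcode, made by the authors with Cell Ranger on GRCm38, with Seurat also named, per the submitters' processing notes. The sources used here give no versions. The barcodes held 6054 to 114332 UMIs in WT and 6328 to 96471 in CKO. Of 33456 gene IDs, 97.6% matched a table of current gene names. Positions and overlaps are from GENCODE M21.

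Members were found by the stated rule on raw counts, with no clustering. Members and gene lists were chosen with earlier results of these data known. Counts were summed over cells to CPM with exact Poisson intervals, ratios took a conditional exact binomial interval, and shares an exact Clopper-Pearson interval. A gene was counted as different at a 2-fold ratio with at least 20 UMIs over both sets; list medians are log2 ratios with 0.5 CPM added. For a gene with 0 UMIs in WT, only the lower limit of the ratio interval is given. With 1 library per genotype no test was made. In counts simulated for CKO over WT members, with 200 of 8203 genes changed 4-fold, the intervals held the true ratio for 96.3% of genes, and 193 changed and 231 of 7975 unchanged genes were called. These counts carry no spread between cells or libraries. Doublets were called with Scrublet in each library (expected rate 1%) and kept unless stated. Thinning drew 6000 UMIs per barcode with seed 0.

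Genes named are those of the 5 platelet and megakaryocyte lists; within members, the 12 highest and 12 lowest ratios among genes with 50 UMIs and seen in 10% of cells, without ribosomal, mitochondrial, predicted, globin and sex-linked genes; the 20 highest in CKO members against other CKO barcodes with 5 CPM added (100 UMIs, 25% of cells); BAF subunits; and markers of other cell types with abundant list members. The same rule was applied to the Pf4-low and Pf4-high sets after seeing the data; the p53 genes and others named outside it were picked as examples after their values were seen. Some genes that the rule names are not reported here. Software versions were matplotlib 3.10.9, anndata 0.12.19, scanpy 1.11.5, scipy 1.17.1, pandas 2.3.3 and numpy 2.4.6 under Python 3.11.15.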

Additional observations from a re-analysis of the deposited data

How the results depend on the processing

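The member share depended on the rule, WT first and CKO second: 8.13% and 14.4% with Pf4 at 1 UMI, 0.508% and 5.55% at 10 UMIs, 1.27% and 6.85% with 5 UMIs of Itga2b, Gp9 and Gp1bb, 1.14% and 6.38% with Gp9 and Gp1bb alone, 0.254% and 4.60% after thinning to 6000 UMIs, and 4.95% and 14.0% of blood barcodes only. Chosen after seeing the data, Pf4 at 1000 CPM gave 0.127% and 4.01%, and at 5000 CPM 0.127% and 2.72%. CKO was above WT in all 14 alternatives. Genes 2-fold higher in CKO members numbered 1012 (339 lower); a minimum of 50 UMIs gave 521 and 186, a minimum of 1 UMI 3772 and 1743, and Pf4-low members, a comparison also added after seeing the data, 644 higher. The median log2 ratio of the signalling list was 0.61 in Pf4-low members (1.12 over all). Against progenitors only, 230 WT and 370 CKO genes were higher in members (658 and 1005 against all other barcodes). Members with 10 or more UMIs of Gp9, Gp1bb and Treml1 were 0% of WT and 17.3% of CKO after thinning (18.2% and 45.3% before). No called value changed sign. The log2 ratio of Gata1, -0.02 over all members, ranged from -1.02 in Pf4-low members to 0.27 with cells weighted equally. The limits are 1 library per genotype, 22 WT members of which 1 is Pf4-high, and Pf4 UMIs in CKO stromal barcodes. No paired analysis was possible because each genotype has 1 library and the result comes from no test.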

Other observations

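Cpa3, the mast cell carboxypeptidase, gave 21 UMIs in 9 of 22 WT members and 1 UMI in 75 CKO members, a ratio of 0.0202 (0.000489 to 0.126). The WT progenitors outside the members held it at 7.06 CPM and the CKO progenitors at 2.40 CPM. Hoxa9, a HOX factor of progenitors, gave 26 UMIs in 3 WT members, 22 of them in 1 cell, and 0 in CKO members. Spn, the leukosialin CD43, gave 16 UMIs in WT and 4 in CKO members (0.106, 0.0259 to 0.329). These genes were picked after their values were seen.

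Pf4 outside the members also differed by cell class. In barcodes with 3 or more C1q UMIs, Pf4 was 203 CPM in 53 WT cells and 33.3 CPM in 21 CKO cells, the reverse of the members. In progenitors it was 10.2 CPM in WT and 29.3 CPM in CKO, and in globin-rich barcodes 0.897 and 128 CPM. A single CKO globin-rich barcode held 670 of the 1246 Pf4 UMIs of that class, and without it the level was 59.5 CPM.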
